A study of Mus musculus with 10 samples.

Results

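The microRNAs miR-208a, miR-208b and miR-499 were followed in the mouse heart together with the genomic interval of Myh6 and Myh7, the genes of the alpha and beta cardiac myosin heavy chains. Members were chosen by name and position. The 6 mature miRNAs whose names begin with miR-208a, miR-208b or miR-499 were taken from 1908 listed, and the 6 long RNA loci whose mm9 position overlaps the Myh6-Myh7 region of chromosome 14 from 35299 listed. The hearts came from C57BL/6 mice with no treatment and no altered allele named. They were embryonic hearts of day 10.5 (E10.5), day 14.5 (E14.5) and day 17.5 (E17.5), newborn hearts, which the labels call neonatal, and adult hearts. Each of the 5 stages had 1 long RNA library and 1 small RNA library. The labels give neither the age of the newborn and adult animals nor how many hearts went into a library, and a library is therefore 1 sample with no spread between animals.

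Cardiac myosin heavy chain is the motor of the sarcomere, and the mouse ventricle exchanges the slow beta form for the fast alpha form around and after birth. miR-208a lies in an intron of Myh6 and miR-208b in an intron of Myh7, and miR-499 lies in Myh7b, another sarcomeric myosin gene on chromosome 2. The 3 miRNAs are known as myomiRs, are largely restricted to striated muscle, and are known to repress transcriptional regulators such as Sox6, Purb and Thrap1, through which they bear on the choice between slow and fast myosins.

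The mature sequences show how the members are related, and the bases 2 to 8 (the seed, which pairs with targets) are in capitals, 5′ to 3′, as given by RefSeq for GRCm38.p6.
miR-208a-3p: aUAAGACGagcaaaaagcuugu
miR-208b-3p: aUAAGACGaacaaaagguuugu
miR-499-5p: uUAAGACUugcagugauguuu
miR-208a-5p: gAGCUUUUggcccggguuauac
miR-208b-5p: aAGCUUUUugcucgcguuaugu
miR-499-3p: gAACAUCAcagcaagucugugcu
miR-208a-3p and miR-208b-3p had the same seed and differed at 3 of 22 positions, G10A, A16G and C18U, written as the miR-208a-3p base, the position counted from the 5′ end and the miR-208b-3p base. miR-499-5p shared bases 2 to 7 with both and departed at base 8. Among 1679 mature mouse names in the RefSeq table, these 3 were all that carried UAAGAC at bases 2 to 7. The 5p strands of miR-208a and miR-208b shared another seed, which miR-6415 also carries (0 counts in every library), and differed at 6 of 22 positions. How the authors' counting treated reads that fit both miR-208 members, such as reads cut short before the differing bases, is unstated in the sources at hand.

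The hairpins show where each strand sits, with both mature arms in capitals.
Mir208a: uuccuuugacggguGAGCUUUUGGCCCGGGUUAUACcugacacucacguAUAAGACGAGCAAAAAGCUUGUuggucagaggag
Mir208b: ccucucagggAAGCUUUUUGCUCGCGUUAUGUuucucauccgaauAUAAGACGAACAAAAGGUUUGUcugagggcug
Mir499: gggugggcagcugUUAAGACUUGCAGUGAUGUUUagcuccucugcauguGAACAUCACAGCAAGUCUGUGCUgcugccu
In GRCm38.p6, Mir208a lies at chr14:54949060-54949142 on the minus strand within Myh6, and Mir208b at chr14:54975700-54975776 on the minus strand within Myh7 and within the non-coding gene Gm31251. The hairpins are 26557 bases apart. Mir499 lies at chr2:155622880-155622958 on the plus strand within Myh7b.

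The small RNA libraries held between 10479309 and 12953867 miRNA counts. The cell type on the labels is cardiomyocyte and the source is heart tissue. All 5 miRNAs listed for cardiomyocytes, of which 3 are members, were counted at every stage, with a summed level of 51949 to 242063 counts per 1000000 counts of the library (CPM). Markers of other cells were counted too, with 0 of them at 0. Those of endothelium summed to 21099 to 38044 CPM, the smooth muscle pair to 66821 to 125122 CPM and the 3 fibroblast strands to 2162 CPM in the adult and 7652 to 16556 CPM before. Nearly all of the smooth muscle sum was miR-143-3p, and miR-145a-5p was at 25.3 to 82.1 CPM. The 2 erythroid miRNAs summed to 103 to 339 CPM, and miR-150-5p of lymphocytes was at 9.73 to 101 CPM. miR-122-5p of liver was at 894 CPM (E10.5), 118 (E14.5), 619 (E17.5), 105 (newborn) and 33.3 (adult). miR-206-3p of skeletal muscle was at 2848 CPM at E14.5, against 82.8 to 586 CPM in the other libraries, so E14.5 stood apart by this strand. The newborn small RNA library stood apart by its neural pair, at 13037 CPM against 405 to 837 CPM in the other libraries, and the comparisons of the adult with the newborn are also given with E17.5 in its place. The part of these cells in the results was not tested, and in bulk tissue fewer cells of a type and less RNA per cell cannot be told apart.

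The beta chain's miRNA strand, miR-208b-3p, was abundant through fetal life and at birth and low in the adult. Its level was 704 CPM (E10.5), 939 (E14.5), 1098 (E17.5), 831 (newborn) and 24.3 (adult). The 4 earlier libraries were all far above the adult one. Between the extremes, the adult had 315 counts and E17.5 had 14109, and the level was 45.2-fold lower in the adult (40.4 to 50.7, exact Clopper-Pearson 95% interval on the counts). Such intervals cover counting error only. The level at E10.5 was 29.0-fold the adult one (25.9 to 32.5). The size of these differences depended on the scaling: the log2 difference of the adult from E17.5 was -5.44 in CPM and -4.04 after median-ratio scaling (libraries scaled by the median ratio over the 750 miRNAs present in all of them), and that from E10.5 was -4.80 in CPM and -2.45 after it. It ranked between 74 and 121 among the 1908 miRNAs before adulthood and 195 in the adult. In order of level in CPM the stages ran adult, E10.5, newborn, E14.5 and E17.5, and the Poisson 95% intervals of neighbours in that order did not overlap. After median-ratio scaling the newborn, at 780, stood above E14.5, at 636.

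The alpha chain's miRNA strand, miR-208a-3p, had its highest level in the adult in CPM and after median-ratio scaling. It was at 229 CPM (E10.5), 152 (E14.5), 195 (E17.5), 275 (newborn) and 395 (adult), on 2395, 1751, 2500, 3502 and 5117 counts. It was lowest at E14.5, and the later stages followed each other upward. The adult level was 2.03-fold that of E17.5 (1.94 to 2.13), 1.44-fold that of the newborn (1.38 to 1.50) and 1.73-fold that of E10.5 (1.65 to 1.82). E14.5 was below E10.5 in CPM, at 0.665-fold (0.625 to 0.707), but after median-ratio scaling the log2 difference of -0.59 became 0.11. The adult differences were larger after that scaling, with log2 values of 2.45 from E17.5 (1.02 in CPM), 1.72 from the newborn (0.52 in CPM) and 3.16 from E10.5 (0.79 in CPM). Per count of miR-133a-3p the difference from E10.5 was -0.30. That miRNA was taken for its likeness in profile to miR-208a-3p, so a small difference follows from the choice and is no result. Neighbouring levels in CPM had Poisson intervals that did not overlap.

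miR-499-5p was the most abundant member at every stage. It was at 2670 CPM (E10.5), 3980 (E14.5), 5007 (E17.5), 6441 (newborn) and 3752 (adult). Its rank among all miRNAs was 56 (E10.5), 38 (E14.5), 31 (E17.5), 26 (newborn) and 32 (adult). The 3 prenatal libraries and the newborn one followed each other upward, and the adult lay between E10.5 and E14.5. The adult level was 0.583-fold that of the newborn (0.576 to 0.589) and 0.749-fold that of E17.5 (0.741 to 0.758). The lower adult value depended on the scaling: as a log2 difference it was -0.78 from the newborn in CPM but 0.43 after median-ratio scaling, and -0.42 from E17.5 in CPM but 1.02 after it. Under median-ratio scaling the adult was the highest of the 5 stages.

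**Figure D1:**
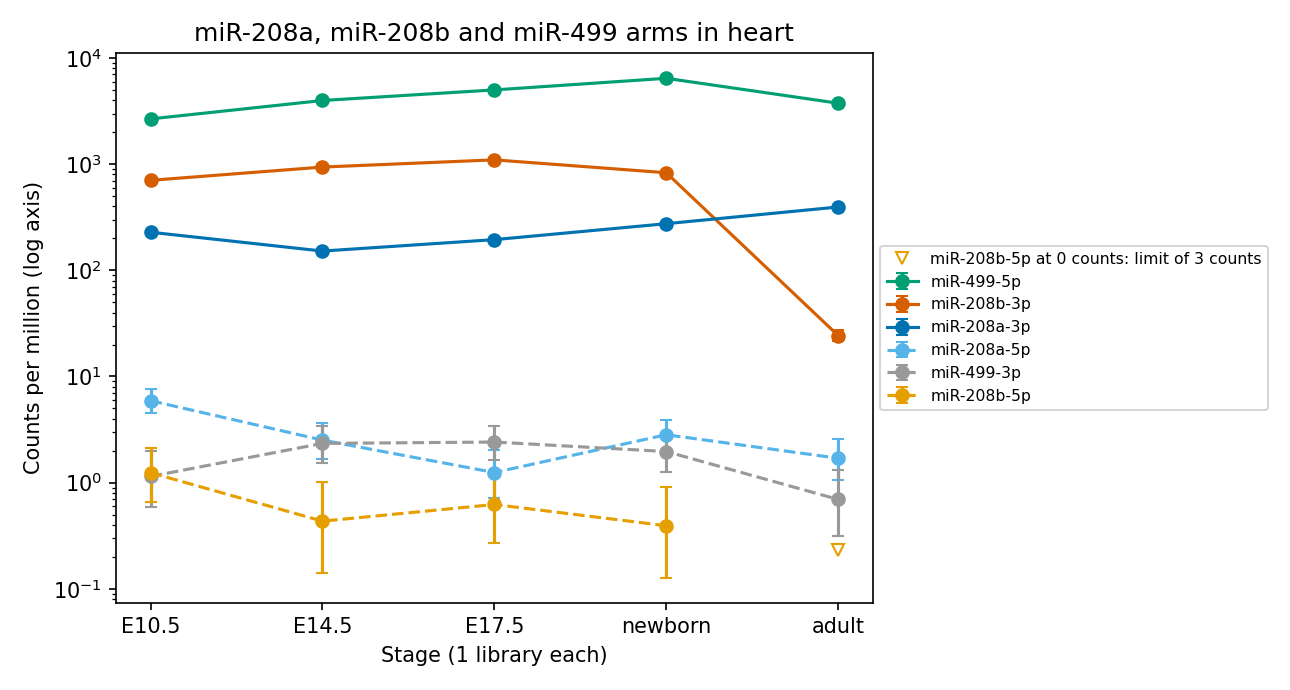
Level of each of the 6 mature miRNAs in CPM (log axis) at the 5 stages, 1 library each, with Poisson 95% intervals. miR-499-5p lies highest at 2670 to 6441 CPM, miR-208b-3p goes to 24.3 CPM in the adult, below miR-208a-3p at 395 CPM, and the open triangle marks the limit that 0 counts of miR-208b-5p allow.

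The opposite strands were scarce. miR-208a-5p had 62, 29, 16, 36 and 22 counts from E10.5 to the adult, miR-499-3p had 12, 27, 31, 25 and 9, and miR-208b-5p had 13, 5, 8, 5 and 0. The 0 counts of miR-208b-5p in the adult allow up to 0.232 CPM (3 counts), and against that floor the adult was at least 5.36-fold lower than the 1.24 CPM of E10.5. With the counting error of the 13 counts at E10.5 included, the exact 95% interval of that ratio begins at 3.77. Both bounds hold for CPM only. After median-ratio scaling miR-208b-5p was at 0.516 at E10.5, and its log2 difference in the adult was -0.60 (-1.16 in CPM), short of the 2-fold limit. Because 1 is added to each value before the log, no lower adult value could have reached that limit from 0.516. The 5p arm made up 2.52% of the miR-208a hairpin's counts at E10.5 (1.94 to 3.22%) and 0.428% in the adult (0.268 to 0.647%). It was 1.63% (E14.5), 0.636% (E17.5) and 1.02% (newborn) between them, and the intervals of these 3 overlap with a neighbour's. For miR-208b the 5p share was 0.176% at E10.5 (0.0936 to 0.300%) and between 0.0462% and 0.0567% in the next 3 libraries, with overlapping intervals. In the adult 0 of 315 counts were 5p, which allows a share of up to 0.952% on the same floor of 3 counts (1.16% as the upper Clopper-Pearson limit). The 3p share of the miR-499 hairpin was 0.0185% in the adult (0.00847 to 0.0351%), on 9 counts, and 0.0305% to 0.0588% before. The adult interval overlapped those of E10.5 (0.0222 to 0.0749%), E17.5 (0.0327 to 0.0684%) and the newborn (0.0197 to 0.0450%). It did not overlap that of E14.5 (0.0388 to 0.0856%). The dominant strand was the same at every stage in each hairpin, 3p for both miR-208 hairpins and 5p for miR-499.

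The share of the miR-208 pair that came from miR-208b is a ratio within a library and does not depend on how libraries are scaled. Of the pair, miR-208b-3p made up 75.5% (E10.5, interval 74.6 to 76.4%), 86.1% (E14.5, 85.5 to 86.7%), 84.9% (E17.5, 84.4 to 85.5%), 75.1% (newborn, 74.4 to 75.8%) and 5.80% (adult, 5.19 to 6.45%). The E10.5 and newborn shares differed by less than counting error, and the intervals of E14.5 and E17.5 met at their edges. miR-208a-3p therefore held 24.5%, 13.9%, 15.1%, 24.9% and 94.2% of the pair in the same order. The ratio of miR-208b-3p to miR-208a-3p was 0.0616 in the adult, against 3.02 in the newborn and 5.64 at E17.5, a 49.1-fold and a 91.7-fold difference. The newborn library thus had a lower miR-208b share than the E17.5 library, with miR-208b-3p still the larger member of the pair. With 1 library per stage, spread between animals was not measured.

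The sum of the pair, which has 1 seed, was 933 CPM (E10.5), 1091 (E14.5), 1293 (E17.5), 1106 (newborn) and 419 (adult). The adult sum was the lowest in CPM, but not after median-ratio scaling, where it was 908 in the adult, against 1039 in the newborn, 1037 at E17.5 and 388 at E10.5. Together with miR-499-5p, the 3 strands with UAAGAC at bases 2 to 7 took 0.360% (E10.5), 0.507% (E14.5), 0.630% (E17.5), 0.755% (newborn) and 0.417% (adult) of all counts. Within this trio the share of miR-499-5p was larger at each later stage, from E10.5 to the adult at 74.1% (73.7 to 74.5%), 78.5% (78.1 to 78.8%), 79.5% (79.2 to 79.8%), 85.4% (85.1 to 85.6%) and 89.9% (89.7 to 90.2%). In the same stage order the share of miR-208b-3p was smaller each time, at 19.6%, 18.5%, 17.4%, 11.0% and 0.583%. The intervals of neighbouring stages did not overlap for either strand. miR-208a-3p had 6.34%, 3.00%, 3.09%, 3.64% and 9.47%.

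**Figure D2:**
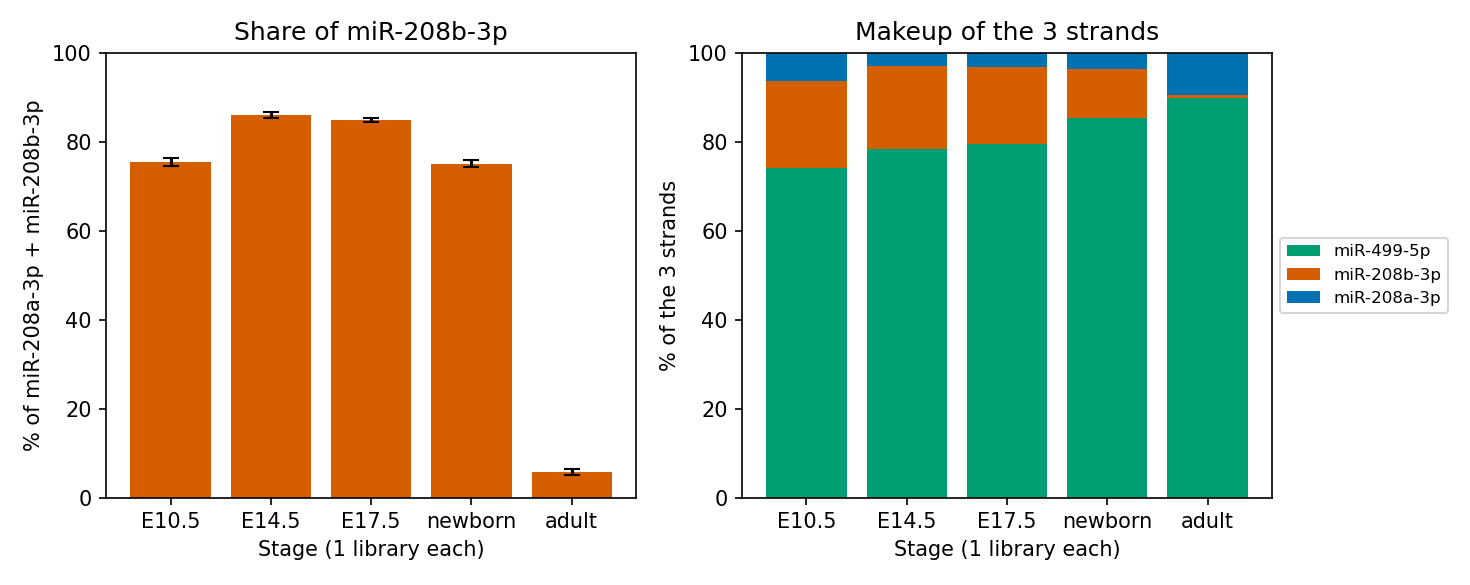
Left, miR-208b-3p as a percentage of the summed counts of miR-208a-3p and miR-208b-3p at each stage, with exact 95% intervals; right, the makeup of the summed counts of miR-499-5p, miR-208b-3p and miR-208a-3p. The miR-208b-3p share is 75.1% to 86.1% in the 4 earlier libraries and 5.80% in the adult, while miR-499-5p goes from 74.1% to 89.9% of the trio.

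Counts of members past the 2-fold limit, on log2(CPM + 1) and among miRNAs with at least 10 counts in either stage, were few. In E14.5 against E10.5, 0 of 6 members were higher and 0 lower, where 2.88% of all miRNAs compared were higher and 27.9% lower. In E17.5 against E14.5, 0 of 5 were higher and 0 lower, against 1.03% and 5.6% of all. In the newborn against E17.5, 0 of 5 were higher and 0 lower, against 5.05% and 9.51% of all. For the adult against the newborn, 0 of 5 were higher, where 6.76% of all were, and 1 was lower, miR-208b-3p, where 43.2% of all were. For the adult against E10.5, 0 of 6 were higher, where 7.97% of all were, and 3 were lower, miR-208b-3p, miR-208b-5p and miR-208a-5p, where 68.2% of all were. miR-208b-5p had 0 counts in the adult and passed the minimum only through its 13 counts at E10.5. Its call was thus set by the E10.5 value and the pseudocount of 1, and shows nothing further. With E17.5 in place of the newborn, the adult had 1 of 5 members higher, miR-208a-3p, where 7.1% of all were, and 2 lower, miR-208b-3p and miR-499-3p, where 50.8% of all were. Of these, miR-208a-3p was near the limit, at 1.02. miR-499-3p lay at the median of all, -1.01, on 9 counts against 31. It met the minimum of 10 counts only through E17.5, the library where it was higher, so its call shows nothing further. After median-ratio scaling 3 of 5 were higher and 1 lower, where 25.9% of all were higher and 29.8% lower. In CPM a lower call was thus common in adult comparisons. The median of the members was -0.78 and that of all miRNAs -0.85 on the log2 scale in the adult against the newborn, and -0.75 (-0.85 with miR-208b-5p at its bound) against -1.59 in the adult against E10.5.

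Against the median of all miRNAs the members separated. Between the adult and the newborn, miR-208a-3p stood 1.37 above that median, miR-499-5p 0.07 above it and miR-208b-3p at -4.19 relative to it, as log2 differences in CPM. Under median-ratio scaling, where the median of all was -0.17, they stood at 1.89, 0.60 and -3.69. With E17.5 in place of the newborn they stood at 2.03, 0.59 and -4.43 in CPM and at 2.64, 1.21 and -3.85 after median-ratio scaling. Relative to E10.5, the adult values against the median were 2.38 for miR-208a-3p, 2.08 for miR-499-5p and -3.21 for miR-208b-3p in CPM, and 3.53, 3.25 and -2.08 under median-ratio scaling. miR-208b-3p was thus below the median of all miRNAs in both adult comparisons under both scalings, and miR-208a-3p above it. Neither 5p strand was called lower in the adult against E10.5 after median-ratio scaling. For miR-208b-5p this was fixed by the pseudocount of 1, since its E10.5 level on that scale was too low for any call. The log2 difference of miR-208a-5p was 0.44 after it (-1.36 in CPM), and that of miR-208b-5p was -0.60 (-1.16 in CPM).

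**Figure D3:**
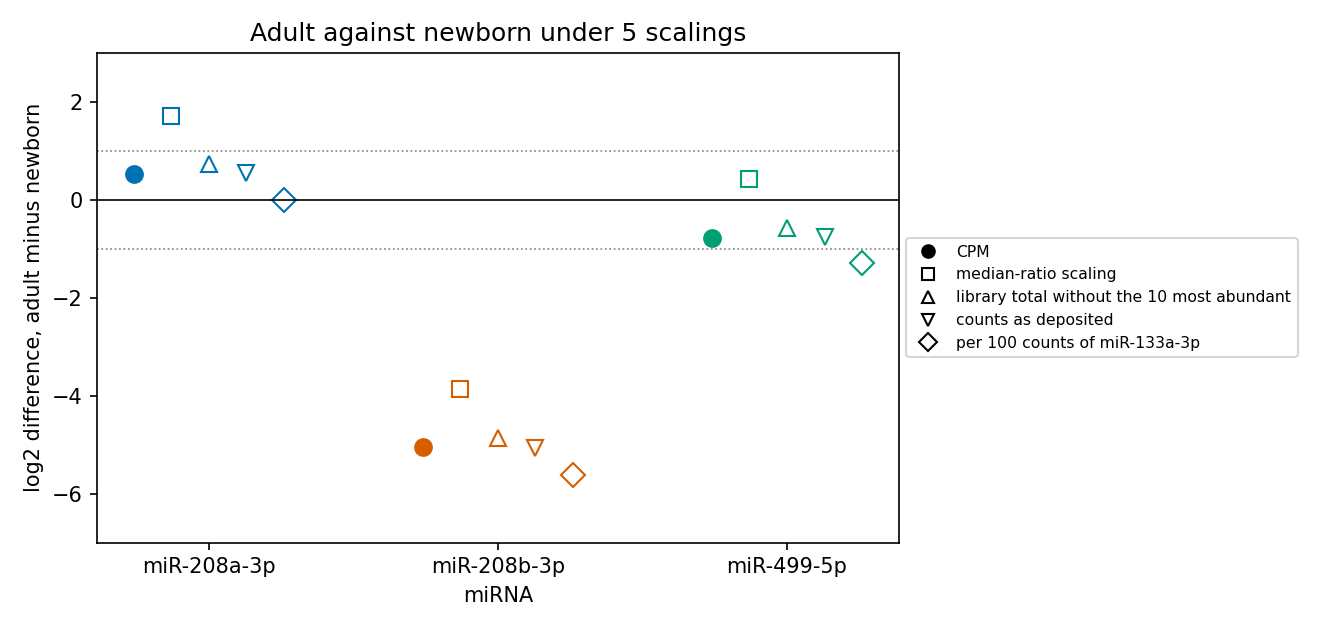
Log2 difference of the adult minus the newborn for the 3 abundant strands under 5 ways of scaling the libraries, 1 library each; the dotted lines mark the 2-fold limit. miR-208b-3p lies between -5.61 and -3.86 under every scaling shown, whereas miR-499-5p lies on both sides of 0, at -0.78 in CPM and 0.43 under median-ratio scaling. Against E17.5 in place of the newborn, miR-208b-3p is at -5.44 in CPM and -4.04 under median-ratio scaling, and miR-499-5p at -0.42 and 1.02. The small value of miR-208a-3p per count of miR-133a-3p follows from taking the miRNA nearest to it in profile.

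Likeness between profiles was measured as the root mean square difference of log2(CPM + 1) over the 5 stages, after each profile was centred on its own mean, among 442 other miRNAs with at least 100 counts in a library. The miRNA nearest to miR-208a-3p was miR-133a-3p, a muscle miRNA from other loci, at a distance of 0.13 log2 units, followed by miR-133b-3p (0.13), whose sequence is nearly that of miR-133a-3p, and miR-497-5p (0.14). miR-133a-3p was at 6181 CPM (E10.5), 4470 (E14.5), 6518 (E17.5), 9172 (newborn) and 13124 (adult). Per 100 counts of miR-133a-3p there were 3.70 of miR-208a-3p (E10.5), 3.40 (E14.5), 2.99 (E17.5), 3.00 (newborn) and 3.01 (adult). On the same scale, and in the same stage order, miR-208b-3p had 11.4, 21.0, 16.8, 9.05 and 0.185. miR-499-5p had 43.2, 89.0, 76.8, 70.2 and 28.6. miR-133a-3p was taken here because it was nearest in profile to miR-208a-3p, so the narrow range of that ratio follows from the choice and is no result. Per 100 counts of miR-1a-3p, which was not chosen that way, miR-208a-3p had 0.542 (E10.5), 0.351 (E14.5), 0.336 (E17.5), 0.320 (newborn) and 0.176 (adult).

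**Figure D4:**
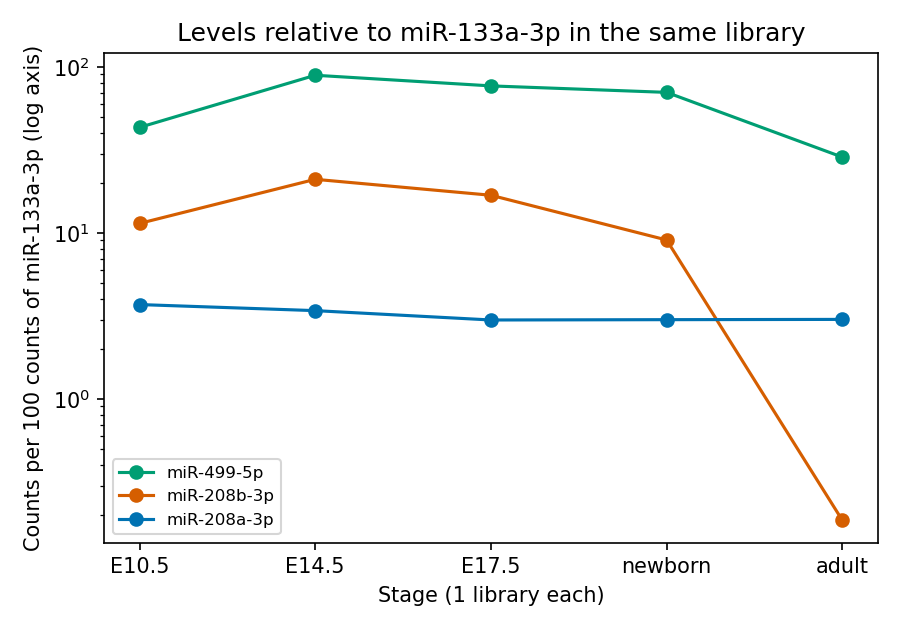
Counts of miR-499-5p, miR-208b-3p and miR-208a-3p per 100 counts of miR-133a-3p in the same library (log axis) at the 5 stages. miR-208b-3p is at 0.185 in the adult, against 9.05 in the newborn and 16.8 at E17.5. The flat line of miR-208a-3p, at 2.99 to 3.70, follows from taking the miRNA nearest to it in profile as the denominator.

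The miRNAs nearest to miR-208b-3p were miR-215-5p (0.22), known from gut and kidney, at 1104, 1395, 2223, 1565 and 55.7 CPM from E10.5 to the adult, then miR-542-3p (0.37) and miR-376b-3p (0.53). For miR-499-5p they were miR-181a-5p (0.20), miR-132-3p (0.22) and miR-1843b-5p (0.22). With the newborn left out, miR-215-5p remained nearest to miR-208b-3p (0.25), while miR-195a-3p (0.087) came nearest to miR-208a-3p and miR-490-3p (0.083) to miR-499-5p. All points share the same 5 libraries.

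The list of 8 other muscle miRNAs held miR-1a-3p, miR-1b-3p, miR-133a-3p, miR-133b-3p, miR-206-3p, miR-486-5p, miR-378a-3p and miR-30a-5p. All but miR-1b-3p, 7 in number, had enough counts to compare. Comparing the adult with the newborn, 2 were higher, miR-1a-3p and miR-486-5p, and 1 lower, miR-206-3p, with a median log2 difference of 0.43 (1.63 under median-ratio scaling, with 6 higher and 0 lower). With E17.5 in place of the newborn, 3 were higher, with miR-133a-3p added, and miR-206-3p was lower. The median was then 0.95 in CPM and 2.38 after median-ratio scaling, which gave 6 higher and 1 lower. miR-1a-3p, the most abundant of that list, was at 224767 CPM in the adult, against 86014 CPM in the newborn and 57890 CPM at E17.5. Per 100 counts of miR-1a-3p, miR-499-5p had 1.67 in the adult, against 7.49 in the newborn and 8.65 at E17.5. On that scale miR-208b-3p had 0.0108 in the adult, against 0.966 in the newborn and 1.90 at E17.5. All 3 abundant members were lower in the adult relative to miR-1a-3p.

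The long RNA table did not separate Myh6 from Myh7. All 6 member loci were listed with the same interval, chr14:55555306-55626715 (mm9), which is 71410 bases long. On GRCm38.p6 the span from the first base of Myh6 to the last of Myh7 is 52706 bases, and 8 annotated genes overlap it, among them Cmtm5, Mhrt (a non-coding RNA known as Myheart), Mir208a and Mir208b. The 6 loci carry 9 UCSC transcript identifiers between them, of which uc007txu.1 stands at 3 loci and uc007txv.1 at 2, and no table at hand gives symbols for them. A beta to alpha ratio of the myosin transcripts was therefore not computed.

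Of the 6 loci, 1 held nearly all of the signal. Levels are in FPKM (fragments per kilobase of transcript, scaled to sequencing depth). XLOC_009781 was at 1951 FPKM (E10.5), 3093 (E14.5), 4614 (E17.5) and 3851 (newborn), and the adult was listed at 0. It took 99.1% to 99.8% of the summed FPKM of the interval in the 4 earlier libraries. Among 35299 loci it ranked 43, 16, 10 and 15 in those libraries. E14.5 was 1.58-fold E10.5 and E17.5 was 1.49-fold E14.5, and the newborn was 0.835-fold E17.5, all in FPKM and below the 2-fold limit. Its highest stage, E17.5, was also the highest stage of miR-208b-3p, at 1098 CPM, and, in CPM, of the summed miR-208 pair.

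The other loci were low. XLOC_009267 was at 4.64 FPKM (E10.5), 10.3 (E14.5), 10.3 (E17.5) and 18.5 (newborn), and was listed at 0 in the adult. XLOC_009268 was at 15.3 FPKM in the newborn, at 0.0368 at E14.5 and listed at 0 in the other 3 libraries. XLOC_009264 was at 2.51 FPKM in the newborn, at 0.771 at E10.5 and listed at 0 elsewhere. XLOC_009265 and XLOC_009266, which carry the same identifier as XLOC_009267, were listed at 0 at every stage. Of the 6 members, 4 reached 1 FPKM in a library. The loci overlap, and how fragments were divided among them was not tested.

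By the 2-fold rule on log2(FPKM + 1), among loci with at least 1 FPKM in either stage, 1 of 2 members was higher in E14.5 against E10.5, XLOC_009267 at a log2 difference of 1.00 (at the limit, and 0.67 with a pseudocount of 5), where 4.95% of all loci compared were higher, and 0 were lower, where 1.95% were. In E17.5 against E14.5, 0 of 2 were higher and 0 lower, against 1.71% and 1.55% of all. In the newborn against E17.5, 2 of 4 were higher, XLOC_009264 and XLOC_009268, and 0 were lower, where 2.79% of all were higher and 2.72% lower. Both loci were listed at 0 at E17.5 and entered only through the newborn value. Their higher calls were therefore fixed by the filter and the pseudocount of 1. XLOC_009264 was at 1.81 on the log2 scale and at 0.59 with a pseudocount of 5. With the adult set against the newborn, 4 of 4 fell under the rule as lower and 0 as higher, against 9.85% and 11.8% of all, and in the adult against E10.5, 2 of 2 as lower and 0 as higher, against 17.9% and 21.7%. Every adult value behind these calls is a listed 0. By this rule a locus at 0 in 1 stage that passes the 1 FPKM minimum in the other is always called. The adult calls were thus fixed by the zeros, and setting them beside the shares of all loci shows nothing further.

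The adult zeros covered all 6 loci of the interval. Of 6 loci within 50 kb on either side, 5 were above 0 in the adult. XLOC_009262 was at 45.0 FPKM in the adult and 46.5 in the newborn, and XLOC_009269, at chr14:55634361-55642974 (mm9), was at 27.8 FPKM in the adult and 35.3 in the newborn. XLOC_009779 was at 1.16 FPKM in the adult and 9.05 in the newborn, and XLOC_009780 at 1.02 in the adult and 3.16 in the newborn, log2 differences of -2.22 and -1.04, both past the 2-fold limit. XLOC_010088, at chr14:55627640-55628449 (mm9) and next to the interval, was listed at 0 in the adult and at 0.0919 to 0.186 FPKM in the other libraries, and XLOC_009263 was at 0 to 0.282 FPKM. Among 28423 distinct intervals, the Myh6-Myh7 interval was the 1 interval listed at 0 in the adult with at least 100 FPKM in each of the other 4 libraries, and no interval was listed that way at any of the other 4 stages. With 10 FPKM as the minimum, 2 intervals were at 0 in the adult alone and 1 at E14.5 alone. The adult small RNA library held 5117 counts of miR-208a-3p, whose hairpin lies inside Myh6. An exact 0 in a table without counts can be a failed estimate, so the adult values are reported as listed at 0 and no fold is given from them.

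**Figure D5:**
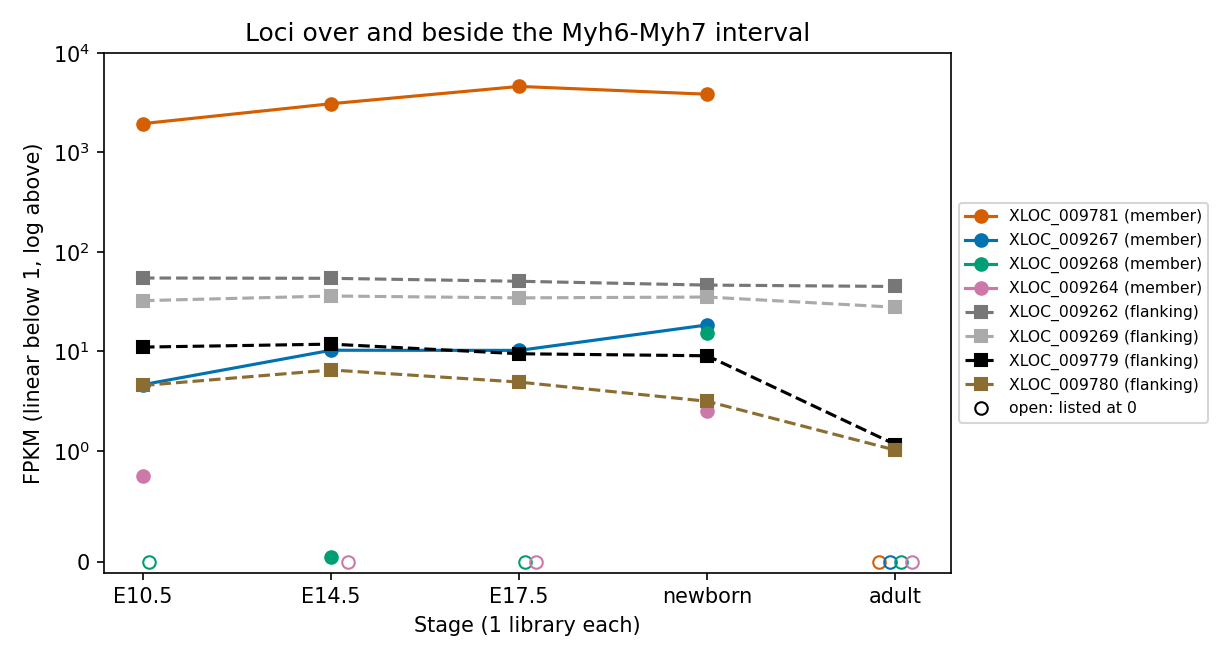
FPKM (linear below 1, logarithmic above) of the 4 member loci that reached 1 FPKM and of the 4 flanking loci that did at the 5 stages, 1 library each, with open circles for values listed at 0. XLOC_009781 is at 1951 to 4614 FPKM in the 4 earlier libraries, and all 4 member loci are listed at 0 in the adult, where 2 flanking loci are at 27.8 and 45.0 FPKM and 2 at 1.02 and 1.16 FPKM.

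The sequences before the starts of the 2 host genes are shown because their miRNAs diverged. Each is the 250 bases before the annotated start (RefSeq, GRCm38.p6, minus strand), with capitals at matches to CATTCC (the MCAT motif of muscle genes) on either strand, Myh6 at chr14:54966608-54966857 and Myh7, for the first of its 2 annotated starts, at chr14:54994627-54994876.
Myh6: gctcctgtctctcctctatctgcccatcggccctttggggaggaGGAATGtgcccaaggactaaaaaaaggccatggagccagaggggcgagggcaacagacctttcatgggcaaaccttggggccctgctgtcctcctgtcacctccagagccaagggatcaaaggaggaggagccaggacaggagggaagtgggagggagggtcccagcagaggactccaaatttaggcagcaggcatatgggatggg
Myh7: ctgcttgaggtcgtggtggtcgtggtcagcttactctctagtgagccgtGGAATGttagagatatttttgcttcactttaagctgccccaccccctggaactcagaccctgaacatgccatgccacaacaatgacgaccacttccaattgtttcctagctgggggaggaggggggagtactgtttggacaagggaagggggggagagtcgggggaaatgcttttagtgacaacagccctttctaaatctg
Both windows held CATTCC once, as GGAATG on the strand shown, 206 bases before the start in Myh6 and 201 in Myh7. Of 32851 annotated windows of this length, 12.6% hold CATTCC on either strand. Both also held CANNTG (E-box) once, as do 66.2% of windows, and neither TATAAA (12.4% of windows) nor AGATAA (9.99%) nor AGGTCA (14.0%), and no 2 of these matches overlapped. The window of the second Myh7 start held CANNTG at 2 places and no CATTCC. The window of Myh7b, which hosts miR-499, held AGATAA once, a CANNTG once and also AGGTCA once. A match is a description of letters and not of a bound site.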

How the data were processed

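Small RNA values are the counts that the authors deposited for each mature miRNA, all of them whole numbers. Per the labels' protocols, RNA of 18 to 30 nucleotides was gel-cut and ligated to adapters with molecular identifiers; whether these identifiers were collapsed is unstated. Long RNA values are FPKM for each locus, per the file headers, with no depth or strand stated. Build mm9 and the tools RSEM, Bowtie, Bowtie2, HISAT and HISAT2 are listed, with no role, per the submitters' processing notes. Each small RNA column was matched to its library by its stage name within the miRNA table.

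Groups came from the sample titles. Counts were scaled to the library total as CPM. A difference is that of log2(value + 1) between stages, so low features are understated, and calls were made at 2-fold. With 1 library per stage no test was run. Shares and ratios carry exact Clopper-Pearson intervals and levels Poisson intervals. The ratio intervals were checked on simulated data, and the share and Poisson intervals were not. Named genes were all members and, for each of the 3 abundant strands, the 3 miRNAs of nearest profile. The members and lists were chosen with earlier results of these data known. Other scalings, pseudocounts, filters and limits were tried. Python 3.11.15, pandas 2.3.3 and scipy 1.17.1 were used.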

Additional observations from a re-analysis of the deposited data

How the results depend on the processing

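With 1 library per stage and assay, no library could be left out of a stage and depth sets counting error only. No paired analysis was possible because each stage has 1 library per assay. The planned share of Myh7 in Myh6 plus Myh7 FPKM was not run, since all member loci share 1 interval. The share of miR-208b-3p in its pair kept its value within counting error at all 5 stages when both arms were summed. The counts of members past the limit were small. Under the alternatives 12 of them moved by more than 1.5 times, and the changes within 1.5 times were from 4 loci to 3 in the adult against the newborn (pseudocount of 5, minimum of 10 FPKM, 4-fold limit) and from 3 miRNAs to 2 in the adult against E10.5 (10 most abundant left out). Between the adult and the newborn, 1 miRNA was higher under median-ratio scaling (0 in CPM), and 2 were lower with the counts as deposited and with a pseudocount of 0.1 (1 in CPM). Between the adult and E10.5, 2 miRNAs were higher under median-ratio scaling, 2 with the 10 most abundant miRNAs left out of the total and 1 with the counts as deposited (0 in CPM). The number lower there was 1 under median-ratio scaling, with a pseudocount of 5, with a minimum of 100 counts and with a 4-fold limit (3 in CPM). In none of these settings could miR-208b-5p have been called lower. Of loci, 1 was lower in the adult against E10.5 with a pseudocount of 5 or a minimum of 10 FPKM (2 otherwise). The shares of all miRNAs and loci called under these settings were not computed for these comparisons, so the member counts have no background beside them. Such shares can shift: in the adult against E17.5, 7.1% of all miRNAs were higher in CPM and 25.9% after median-ratio scaling. The shares lower were 50.8% and 29.8%. The log2 difference of miR-208a-5p in the adult from E10.5 turned to 0.44 under median-ratio scaling. That of miR-208b-3p in the adult stayed between -5.61 and -3.86 against the newborn and between -5.94 and -2.45 against E10.5. Values per count of miR-133a-3p were added after seeing the data. With them the log2 difference of miR-208a-3p in the adult from E10.5 was -0.30 and that of miR-499-5p -0.60, against 0.79 and 0.49 in CPM. For miR-208a-3p a small difference on that scale follows from the choice of the miRNA nearest to it in profile. Rescaling FPKM to 1 total without mitochondrial loci moved the log2 difference of XLOC_009781 in E14.5 from E10.5 to 3.42, against 0.66 as deposited. It was 0.70 when the 1 locus above 1000000 FPKM at E10.5 was left out too, which was added after seeing the data. The causes of these changes were not tested.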

Other observations

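The long RNA locus nearest in profile to XLOC_009781 over the 4 stages before the adult, among 7885 loci with at least 10 FPKM in a stage, was XLOC_017804 at chr2:155436947-155460043 (mm9), at a distance of 0.025 log2 units. It was at 9.27 FPKM (E10.5), 15.1 (E14.5), 22.4 (E17.5), 18.5 (newborn) and 17.9 (adult). Restricting the comparison to 4 stages was chosen after the adult zeros had been seen. Over all 5 stages the nearest locus was XLOC_000481 at chr1:137696032-137707542 (mm9), at 1033, 1444, 1795, 1439 and 2.26 FPKM, at a distance of 1.18. The files pair neither locus with a gene symbol.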
